A study of Mus musculus with 18 samples.

Results

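The comparison described here set Brca1 conditional knockout mice against wild-type mice in the brain samples that the submitters titled rest, at postnatal day 7. It used 6 of the 18 samples of the series, 3 knockout and 3 wild type, each on an Affymetrix mouse array with 45037 probe sets for mouse transcripts. A probe set is a group of short oligonucleotides read together for 1 transcript, and its deposited value is a MAS5 signal, a brightness on a linear scale. A probe set entered the comparison when a signal was listed on at least 2 arrays of each genotype, since the deposited table leaves other values blank. That left 21407 probe sets, which represent 11101 named genes. All 6 arrays had a signal for 19262 probe sets, and 17964 had none on any array. Just inside the limit lay 2145 probe sets with 2 listed arrays in 1 genotype or both, with a median signal of 64.9. Just outside lay 1576 with 1 listed array in a genotype and at least 2 in the other, with a median of 52.7. The median was 282 over probe sets listed on every array.

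In the knockout mice, Cre recombinase under nestin control acted on a Brca1 allele with loxP sites around exons 5 to 13. The other allele was null, disrupted by a neo cassette placed in reverse at exon 11. The labels give the controls only as wild type, with no Cre status. Nestin is expressed in neural progenitors, so neurons, astrocytes and oligodendrocytes descend from cells in which the driver is active, while meningeal cells, endothelium and microglia have other origins. The labels number the samples but do not say that each came from its own animal, so p-values measure the spread between these samples. The source is given as brain, and the labels do not say which regions the rest held.

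Brca1 encodes a protein of the double-strand break repair machinery and is needed by dividing progenitors. Oligodendrocytes arise from dividing precursors, stop dividing, and then switch on the genes for myelin, the lipid-rich sheath around axons. In mouse brain this switch spreads during the first weeks after birth, earlier in hindbrain and deep structures than in cortex. The meninges are the connective tissue coverings of the brain, built by fibroblasts that secrete collagens, small proteoglycans and the chemokine Cxcl12.

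The arrays were alike in overall measures. The share of probe sets with a signal was 49.2%, 51.6% and 50.5% in wild type and 50.3%, 51.1% and 51.4% in knockout, and factors that would equalise their trimmed means lay between 0.9932 and 1.007. The ratio of the 3' to the 5' beta-actin control was 1.96 on knockout array 3 and between 1.64 and 1.73 on the other 5 arrays. The Y-linked gene Eif2s3y was listed on knockout arrays 1 and 2, with signals of 257 and 238, and blank on the other 4. Xist, transcribed from the inactive X chromosome, gave signals of 4642, 3497 and 4259 in wild type, 176 on knockout array 1, a blank on knockout array 2 and 3609 on knockout array 3. Sex markers therefore differed between the wild-type group and knockout arrays 1 and 2, and knockout array 3 was the only knockout array with the markers of the wild-type arrays. Brca1 itself was measured by 1 probe set on every array, with signals of 101, 112 and 114 in wild type and 119, 86.6 and 135 in knockout. Its log2 change was 0.04 ± 0.194 (SE, limma adjusted p = 0.967), and the groups overlapped. Of the other Brca1 probe sets, 1 was blank on every array, 1 was listed on 1 array and 1 on 2. The files do not say whether the oligonucleotides lie in the floxed exons, so Brca1 gives no check of the genotype labels.

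Marker genes showed tissue from deep structures, and most genes listed for cortical projection neurons were also present. Of 19 thalamus and midbrain genes present on both array types, 17 were listed on all 6 rest arrays and 4 on all 6 cortex arrays. Among them Gata2, Gbx2, Irx1, Irx3, Irx5, Lhx9, Otx2, Shox2 and Tfap2b were listed on every rest array and on no cortex array. The same held for Th and Slc6a4, which mark dopamine and serotonin neurons, for the hypothalamic genes Hcrt, Otp and Trh, and for Lhx1 and Lhx5 of Purkinje cells. A gene was counted by its best probe set on each array type. Of 45 repair and checkpoint genes on both types, 35 were listed on all 6 rest arrays and 24 on all 6 cortex arrays. For 50 respiratory chain genes the counts were 50 and 49. Array type and tissue cannot be told apart in such counts. Hindbrain Hox and patterning genes were listed less evenly: of 23 on the array, 1, En2, was listed on all 6 rest arrays and 7 on none. En1, Hoxa3 and Hoxb3 were listed on 5 rest arrays and 0 cortex arrays, and Hoxb7 on 5 rest and 6 cortex arrays. Of the cortical projection neuron genes, 16 of 22 were listed on every rest array, among them Bcl11b, Neurod2, Mef2c and Lhx2, while Emx1 was blank on all 6. The others were listed on fewer rest arrays: Fezf2 on 2, Emx2 on 3, Tbr1 on 4, and Neurod6 and Lmo3 on 5. Fezf2, Tbr1 and Neurod6 were listed on all 6 cortex arrays. Of 18 cortical projection neuron genes on both array types, 15 were listed on all 6 rest arrays and 14 on all 6 cortex arrays. The rest samples were therefore not free of transcripts that cortical neurons also express.

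Knockout and wild type differed at 67 of the 21407 probe sets, 0.313% of those tested, at a limma adjusted p under 0.05 (Benjamini-Hochberg). Of these, 31 were higher in knockout (0.145%) and 36 lower (0.168%), and at an unadjusted p under 0.05 there were 2275. More than a 2-fold change was seen for 18 of the higher and 20 of the lower probe sets. The 67 named 22 genes that rose (0.198% of genes tested) and 28 that fell (0.252%). In all 67 the knockout and wild-type signals did not overlap. The list with the most genes that fell was that of myelin and oligodendrocytes, and the list with the most that rose was that of meningeal and mural cells and fibroblasts. The number of calls moved with single arrays. It was 33 without wild-type array 1, 29 without wild-type array 2, 25 without knockout array 1 and 12 without knockout array 2. Without wild-type array 3 it was 47, and without knockout array 3 it was 67. Of the 67 probe sets called with all arrays, 27 were still called without wild-type array 3 and 42 without knockout array 3. With the Y-linked marker as a term, which leaves knockout array 3 against wild type for the genotype effect, 8 probe sets were called. Among the 67, 2 were still called then, those of Itih5 and 1 of Ndufa12, and all 67 kept their direction. That direction was fixed beforehand, because in each of the 67 knockout array 3 already lay beyond every wild-type signal. The median ratio of the log2 change with this term to the one from all arrays was 1.02 for the higher and 0.848 for the lower probe sets. The part of sex in the other calls was not tested beyond this.

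**Figure D1:**
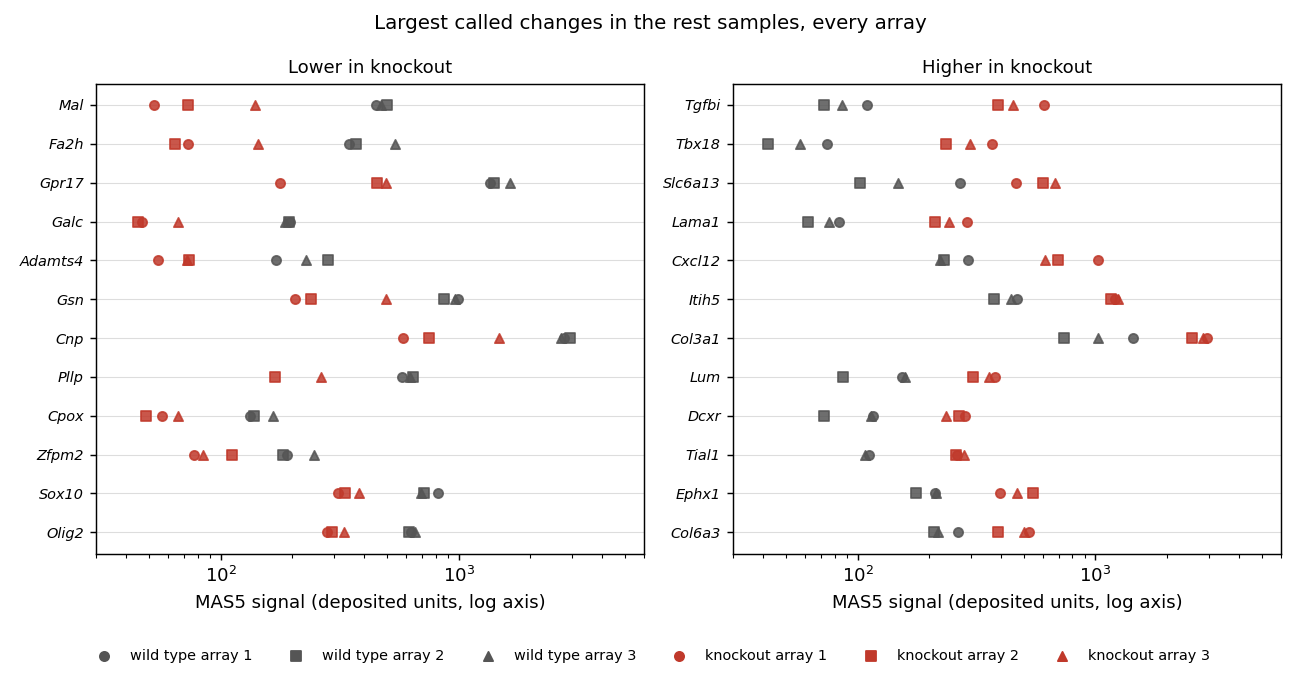
MAS5 signals on a log axis for the 12 genes with the largest falls (left) and the 12 with the largest rises (right) among called probe sets, with 1 point for each array, grey for wild type and red for knockout. In every row the knockout arrays lie on 1 side of the wild-type arrays, which was a condition for choosing these genes and so is not a separate result. Every called probe set met that condition, so it did not change the choice. For most of the genes that fell, knockout array 3 lies nearest to wild type. Tial1 lacks wild-type array 2 and Pllp lacks knockout array 1, where the signal was blank.

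Among called probe sets, the largest fall was that of Mal. Mal encodes a small membrane protein that sorts proteins and lipids to the myelin sheath. Its signals were 448, 501 and 471 in wild type and 52.2, 72.6 and 140 in knockout. All 3 knockout arrays lay far below the wild-type arrays, with knockout array 3 the highest of them. The log2 change was -2.55 ± 0.296 (SE, adjusted p = 0.0122), a 5.84-fold lower level, and it was -1.76 for knockout array 3 alone against wild type, where it was not called.

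Fa2h and Galc act on galactolipids, the sugar-bearing lipids typical of myelin. Fa2h adds the hydroxyl group found on their fatty acids, and its signals were 345, 370 and 538 in wild type and 73, 64.4 and 143 in knockout (log2 change -2.22 ± 0.29, SE, adjusted p = 0.0205). Galc degrades galactosylceramide in lysosomes, and its signals were 196, 194 and 186 in wild type and 46.5, 44.8 and 66.3 in knockout (log2 change -1.89 ± 0.192, SE, adjusted p = 0.00686). With 64 added to every signal before the log, the Galc change was -1.14 and still called. Neither gene's groups overlapped, and the 3 Galc wild-type arrays were close to each other. A second Galc probe set changed little (log2 change -0.05), so the probe sets of this gene disagreed.

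The sequences before the start sites of genes with the largest called changes are shown for a reader to set beside the values. For Mal and Galc, 250 bases before the start are given 5′ to 3′ from RefSeq (GRCm38.p6), with matches to 4 motifs in capitals. The motifs were searched on both strands. Sox proteins bind the core ACAAAG. Helix-loop-helix proteins such as Olig2 bind E-boxes such as CAGCTG. The general promoter element called the GC box was searched as GGGCGG. The element that positions the start of transcription, known by the letters it opens with, was searched as TATAAA. The Mal window is chr2:127656696-127656945, minus strand, and holds no match. The Galc window is chr12:98259460-98259709, minus strand, with a GC box starting 20 bases before the start. No matches overlap.
Mal: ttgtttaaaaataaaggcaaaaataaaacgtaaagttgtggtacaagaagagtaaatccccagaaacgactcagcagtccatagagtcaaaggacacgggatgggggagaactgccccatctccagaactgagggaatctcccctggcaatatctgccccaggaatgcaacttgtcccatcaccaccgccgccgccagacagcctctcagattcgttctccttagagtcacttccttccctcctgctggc
Galc: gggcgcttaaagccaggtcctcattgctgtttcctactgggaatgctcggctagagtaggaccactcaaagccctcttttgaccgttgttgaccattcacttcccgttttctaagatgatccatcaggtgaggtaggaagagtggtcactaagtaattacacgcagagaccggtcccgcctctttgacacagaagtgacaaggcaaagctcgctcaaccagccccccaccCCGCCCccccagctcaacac
Among the 28 genes that fell, 20 had a promoter in the table. The ACAAAG core was in 5.0% of these windows against 16.5% of all 27025 windows, CAGCTG in 5.0% against 12.8%, GGGCGG in 55.0% against 32.9% and TATAAA in 10% against 13.0%. These shares describe letters in a short window only.

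Other myelin and oligodendrocyte genes fell with Mal. Cnp encodes an enzyme-related protein of the cytoplasmic channels of myelin. Its signals were 2789, 2949 and 2685 in wild type and 585, 754 and 1476 in knockout (log2 change -1.69 ± 0.266, SE, adjusted p = 0.0402). The other tested Cnp probe sets had log2 changes of -1.65 and did not pass (adjusted p = 0.0754 and 0.0611). In the called one all the knockout arrays lay below the wild-type ones, and knockout array 3 stood between the others and wild type. The Cnp change was -0.93 with the Y-linked marker as a term (adjusted p = 0.114). Pllp, a membrane protein of myelin, read 580, 643 and 623 in wild type, was blank on knockout array 1, and read 170 and 264 on knockout arrays 2 and 3 (log2 change -1.54 ± 0.177, SE, adjusted p = 0.0157). With blanks set to a low signal the Pllp change was -2.36 and not called (adjusted p = 0.246).

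Gsn encodes gelsolin, a protein that severs actin filaments and is abundant in oligodendrocytes. Its brightest probe set gave 998, 869 and 970 in wild type and 205, 239 and 497 in knockout. The groups did not overlap, and the log2 change was -1.70 ± 0.27 (SE, adjusted p = 0.0427). It was -0.93 with the Y-linked marker as a term (adjusted p = 0.135). All 4 tested Gsn probe sets were called, with log2 changes between -1.70 and -1.29. Sirt2, a deacetylase of oligodendrocytes, fell by 1.05 on the log2 scale (adjusted p = 0.025), and Tspan2, a tetraspanin of the same cells, by 0.87 (adjusted p = 0.0444).

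Sox10 and Olig2, transcription factors of oligodendrocyte identity, were among the genes that fell. Sox10, which drives myelin genes, read 817, 719 and 695 in wild type by its called probe set and 311, 332 and 383 in knockout (log2 change -1.12 ± 0.109, SE, adjusted p = 0.00632). Olig2, needed from the precursor stage on, read 628, 619 and 654 in wild type and 279, 293 and 330 in knockout (log2 change -1.08 ± 0.0974, SE, adjusted p = 0.00501). In these probe sets the knockout arrays lay between 41.9% and 52% of the wild-type mean, and knockout array 3 was the highest. A second Sox10 probe set read 407, 340 and 354 in wild type and 130, 246 and 244 in knockout, with no overlap and array 2 the highest knockout array, and did not pass (-0.88, adjusted p = 0.202). The remaining Sox10 probe set, blank on knockout array 1, did not pass either (-1.02, adjusted p = 0.0535). For the called probe sets of Sox10 and Olig2 with knockout array 3 alone the log2 changes were -0.95 and -0.94, neither of them called.

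Gpr17 encodes a receptor of committed precursors that have not yet made myelin. It read 1358, 1406 and 1652 in wild type and 177, 453 and 494 in knockout (log2 change -2.10 ± 0.32, SE, adjusted p = 0.0335). Knockout array 1 was the lowest and no array overlapped with wild type. Adamts4, a protease that in brain is made by oligodendrocytes, read 170, 281 and 229 in wild type and 54.4, 73.5 and 72.1 in knockout (log2 change -1.75 ± 0.216, SE, adjusted p = 0.0154). With 64 added to every signal the Adamts4 change was -1.14 and still called.

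The other large falls were of genes with other known roles. Cpox, an enzyme of haem synthesis, read 133, 138 and 166 in wild type and 56.6, 48.4 and 65.8 in knockout (log2 change -1.36 ± 0.189, SE, adjusted p = 0.025), and with 64 added to every signal the change was -0.79 and still called. Zfpm2, a cofactor of GATA transcription factors, read 190, 183 and 247 in wild type and 77.4, 112 and 84.5 in knockout (log2 change -1.18 ± 0.192, SE, adjusted p = 0.0444). Neither gene's groups overlapped. A second Cpox probe set (-0.81, adjusted p = 0.157) and a second, brighter Zfpm2 probe set (-0.46, adjusted p = 0.362) were lower and did not pass. Smaller called falls included Dcx, the microtubule protein of migrating young neurons (-0.92), Nfix, a transcription factor of neural precursors and granule cells (-0.95), and Tubb4a, a tubulin abundant in oligodendrocytes (-0.43). Dcx was called through 1 of 4 tested probe sets, all below 0, and its brightest did not pass (-0.40, adjusted p = 0.237). For Nfix 2 of 4 tested probe sets were called, and all 4 were below 0. Malat1, a nuclear long noncoding RNA, was called through 1 of 6 tested probe sets (-1.06), and its probe sets ranged up to 0.46, so they disagreed in sign. Tufm, a mitochondrial translation factor, was called lower by 1 probe set (-0.81) while the other was at 0.04.

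Of the 47 genes listed for myelin and oligodendrocytes, 43 were on the array and 32 were tested. A gene was counted as called when any of its probe sets passed. By that rule 8 fell (Cnp, Fa2h, Gsn, Mal, Pllp, Sirt2, Sox10 and Tspan2) and 0 rose, while 0.252% of all genes were called lower. At an unadjusted p under 0.05 in limma there were 22 lower and 2 higher. Over the whole array 2275 of 21407 tested probe sets reached that level in either direction. The list was chosen with earlier results of these data known. The median log2 change of the 32 genes, each by its brightest tested probe set, was -0.80, against 0.02 over all 11101 genes. Among 29 members listed on all 6 arrays, the groups did not overlap in 19 that were lower (65.5%) and in 4 that were higher, while over all 10308 such genes the shares were 6.74% lower and 9.93% higher. In bulk tissue fewer oligodendrocytes and less RNA in each cannot be told apart. The list's count was 2 without wild-type array 1, 3 without wild-type array 2, 5 without wild-type array 3, 5 without knockout array 1, 2 without knockout array 2 and 14 without knockout array 3. With the Y-linked marker as a term it was 1.

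Several genes of the myelin sheath had changes as large as those of the called genes, some larger than that of Mal, and did not pass. Their knockout arrays were far apart. Mbp, named here after its values were seen, encodes myelin basic protein, which holds the layers of the sheath together. A probe set listed on every array gave 6763, 6788 and 6014 in wild type and 201, 1487 and 4431 in knockout. Those knockout values were 3.09%, 22.8% and 67.9% of the wild-type mean, and no array overlapped with wild type. The tested Mbp probe set with the highest signal over its listed arrays was blank on knockout array 1. Its log2 change, from knockout arrays 2 and 3, was -2.33 (adjusted p = 0.201). Other bright Mbp probe sets listed on every array had 1.56% to 3.67% of the wild-type mean on knockout array 1 and 27.1% to 66.6% on knockout array 3. A much dimmer Mbp probe set had overlapping groups and a log2 change of 0.12 (adjusted p = 0.875). It read 210 and 292 on wild-type arrays 1 and 3 and 274, 317 and 226 in knockout, so it disagreed with the bright ones. Mag, an adhesion protein of the inner myelin layer, read 1067, 1164 and 1219 in wild type and 98.3, 95.5 and 528 in knockout (-2.75, adjusted p = 0.0805). Ugt8a, the enzyme that makes galactosylceramide, read 676, 805 and 836 in wild type and 29.4, 84.6 and 289 in knockout (-3.10, adjusted p = 0.0965). In each of these genes knockout array 3 was the highest knockout array and still lay below every wild-type array. Mobp, another protein of compact myelin, was blank on knockout array 1 and read 38.7 and 283 on the other 2, against 906, 839 and 974 in wild type (-3.11, adjusted p = 0.126). Bcas1 (-1.97, adjusted p = 0.0805) and Cldn11, the tight-junction protein of myelin (-1.92, adjusted p = 0.0593), did not pass either.

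**Figure D2:**
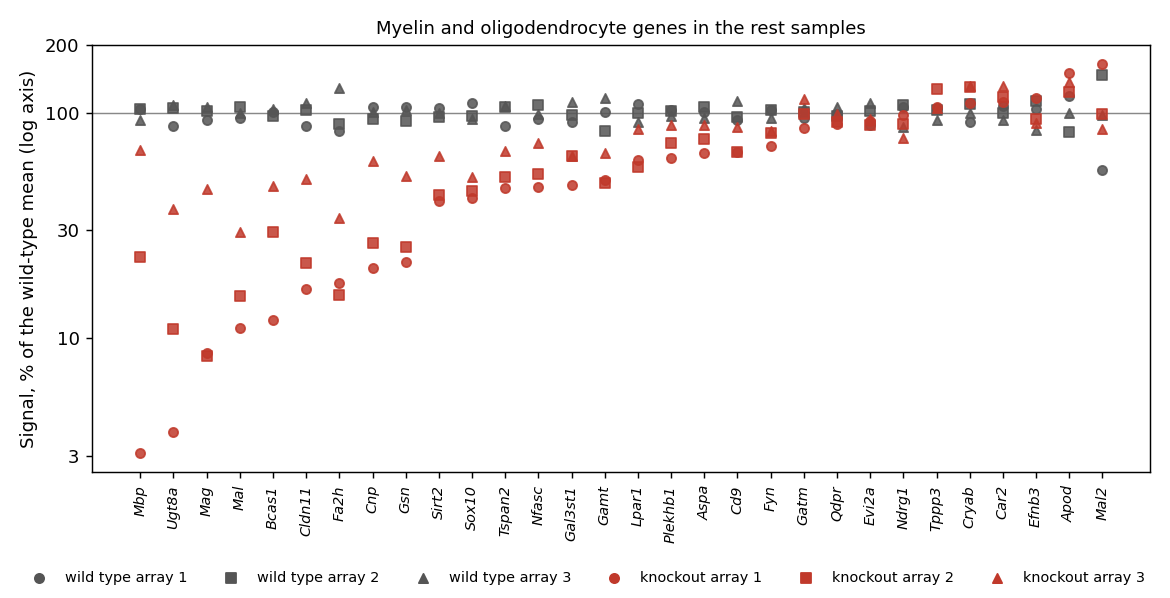
Signal of each myelin and oligodendrocyte gene listed on all 6 arrays, with Mbp added by the probe set described above, as a percentage of the gene's wild-type mean on a log axis, 1 point for each array. Wild-type arrays cluster near 100% for nearly all genes, and the genes on the left are low in knockout, where array 3 lies highest, as for Mbp with 3.09%, 22.8% and 67.9%.

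The order of the knockout arrays was shared by these genes. Of 23 myelin and oligodendrocyte genes with a lower mean change in knockout, 21 had their highest knockout signal on array 3 (91.3%), and 16 had their lowest on array 1. Over all genes lower in knockout the share highest on array 3 was 39.6% (1754 of 4434). Summed over the 29 genes listed on every array, the signal was 29162, 28950 and 29269 in wild type and 15644, 16765 and 21690 in knockout. Knockout array 3 is also the array with wild-type sex markers and the highest beta-actin ratio, and the part of either in its higher myelin signal was not tested.

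The list did not move as a whole. Apod, a lipid carrier, read 971, 672 and 816 in wild type and 1232, 1010 and 1119 in knockout (log2 change 0.46, adjusted p = 0.244). Car2, a carbonic anhydrase of glia, read 1610, 1501 and 1390 in wild type and 1669, 1766 and 1976 in knockout (0.26, adjusted p = 0.306). Cryab and Tppp3 were the other 2 genes whose knockout arrays all lay above wild type, and none of the 4 passed. Qdpr and Gatm had log2 changes of -0.11 and -0.02.

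Probe sets with a signal on all 3 wild-type arrays and none on any knockout array numbered 80, and 118 were listed the other way round. These had no tested change, and a blank is not a level, so no fold is given. The 80 included Myrf, the transcription factor that starts myelin gene expression, with wild-type signals of 126, 234 and 204, and Ermn, a cytoskeletal protein of mature oligodendrocytes, with 138, 142 and 132. Plxnb3, a semaphorin receptor found in oligodendrocytes, read 219, 204 and 223, and a second Adamts4 probe set read 79.8, 80.1 and 73.1. Ermn and Plxnb3 each had another probe set listed on 4 rest arrays, so not on wild-type arrays alone. Opalin, Enpp6, Tmem125 and Ppp1r14a, further oligodendrocyte genes, were also among the 80, with mean signals between 52.9 and 72.1. Another probe set of Apod, also on the myelin list, went the other way, with 98.1, 54.3 and 55.5 in knockout and blanks in wild type. These genes were picked by name, and no share over all probe sets was computed.

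Of the genes of oligodendrocyte precursors, all 23 listed ones on the array were tested, 3 fell (Gpr17, Olig2 and Sox10; 0.252% of all genes were called lower) and 0 rose, with 14 lower and 0 higher at an unadjusted p under 0.05. Their median log2 change was -0.35. Of 21 listed on every array, 12 were lower with no overlap (57.1%, against 6.74% of all genes) and 0 higher. The difference from the myelin list, with which it shares Sox10, was not tested. Pdgfra, the growth factor receptor that defines precursors, read 1097, 1077 and 1083 in wild type and 770, 992 and 1054 in knockout (log2 change -0.22, adjusted p = 0.53). The proteoglycan gene Cspg4 had overlapping groups and a log2 change of -0.14 (adjusted p = 0.772). Olig1, a relative of Olig2, read 3501, 3027 and 3045 in wild type and 2254, 2722 and 2793 in knockout (-0.30, adjusted p = 0.288). Nkx2-2, a transcription factor of precursors about to differentiate, read 511, 510 and 577 in wild type and 277, 371 and 358 in knockout (-0.68, adjusted p = 0.0725). Its groups did not overlap. Without knockout array 3 the count of called members was 6. With the Y-linked marker as a term it was 0.

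Among called probe sets, the largest rise was that of Tgfbi, which encodes a matrix protein induced by transforming growth factor beta. Its signals were 110, 71.8 and 85.9 in wild type and 605, 391 and 452 in knockout. All 3 knockout arrays lay several times above the highest wild-type array. The log2 change was 2.43 ± 0.202 (SE, adjusted p = 0.00361), 5.4-fold, and all 4 tested Tgfbi probe sets were called, with log2 changes from 1.41 to 2.43. With knockout array 3 alone it was 2.36, which did not pass (adjusted p = 0.064).

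Tbx18 encodes a transcription factor of meningeal fibroblasts and mural cells. It read 74.1, 42.1 and 57.2 in wild type and 365, 235 and 296 in knockout (log2 change 2.39 ± 0.238, SE, adjusted p = 0.00685). The groups lay far apart, and with 64 added to every signal the change was 1.57 and still called. A second Tbx18 probe set was listed on the 3 knockout arrays and on no wild-type array, with a mean signal of 165. The 250 bases before the starts of Tgfbi and Tbx18 are given as above. The Tgfbi window is chr13:56609336-56609585, plus strand, with the Sox core on the reverse strand, its leftmost base 156 bases before the start, and a GC box 124 bases before it. The Tbx18 window is chr9:87731261-87731510, minus strand, and holds no match to the 4 motifs.
Tgfbi: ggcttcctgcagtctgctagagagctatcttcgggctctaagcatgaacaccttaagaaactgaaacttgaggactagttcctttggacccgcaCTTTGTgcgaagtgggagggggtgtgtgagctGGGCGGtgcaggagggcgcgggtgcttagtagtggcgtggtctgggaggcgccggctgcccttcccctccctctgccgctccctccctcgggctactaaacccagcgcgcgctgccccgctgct
Tbx18: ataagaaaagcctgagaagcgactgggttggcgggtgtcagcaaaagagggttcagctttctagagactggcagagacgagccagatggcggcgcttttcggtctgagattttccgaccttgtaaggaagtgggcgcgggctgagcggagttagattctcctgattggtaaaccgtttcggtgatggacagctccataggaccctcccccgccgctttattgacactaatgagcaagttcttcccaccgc
Of the 22 genes that rose, 18 had a promoter in the table. ACAAAG was in 16.7% of these windows, CAGCTG in 5.56%, GGGCGG in 44.4% and TATAAA in 16.7%, with the shares over all windows as given above.

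Several genes for matrix proteins were among those that rose. Lama1, the laminin chain of the basement membrane under the pia mater, read 83.6, 62 and 75.7 in wild type and 287, 212 and 243 in knockout (log2 change 1.74 ± 0.179, SE, adjusted p = 0.00686). Col3a1, a fibrillar collagen, read 1433, 740 and 1022 in wild type and 2931, 2544 and 2829 in knockout (1.43 ± 0.192, SE, adjusted p = 0.0221). In both genes wild-type array 2 was the lowest and the knockout arrays were close to each other. Lum, a small proteoglycan that binds collagen, read 154, 86.7 and 159 in wild type and 377, 304 and 356 in knockout (1.42 ± 0.224, SE, adjusted p = 0.0402). Col6a3, a chain of type VI collagen, read 265, 210 and 218 in wild type and 525, 389 and 502 in knockout (1.03 ± 0.145, SE, adjusted p = 0.025). The proteoglycans Dcn (0.99) and Bgn (0.78) and the basement membrane collagens Col4a1 (0.99) and Col4a2 (0.99) also rose, while Fn1, Mgp and Col1a1, also on the list of fibroblast genes, did not pass. A second Col4a1 probe set read 1452, 1064 and 1181 in knockout and was blank on every wild-type array.

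Itih5 had the lowest adjusted p of all probe sets tested. It encodes a secreted protein related to those that bind hyaluronan, and read 469, 373 and 441 in wild type and 1203, 1167 and 1241 in knockout. The knockout arrays differed from each other by less than the wild-type ones did, and the log2 change was 1.5 ± 0.098 (SE, adjusted p = 0.00107). It was the only gene among the 24 with the largest changes that was still called with the Y-linked marker as a term (1.54, adjusted p = 0.0128).

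Cxcl12, the chemokine that meningeal cells release to guide migrating neurons, read 291, 230 and 222 in wild type and 1027, 692 and 616 in knockout (log2 change 1.63 ± 0.185, SE, adjusted p = 0.0122). Knockout array 1 was the highest, and no array overlapped. Slc6a13, a transporter of GABA and taurine in leptomeninges, read 268, 103 and 147 in wild type and 462, 601 and 675 in knockout (1.84 ± 0.298, SE, adjusted p = 0.0444). Wild-type array 1 was well above the other wild-type arrays and still below all knockout arrays.

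Some of the genes with the largest rises belong to detoxification and to RNA binding. Ephx1, an epoxide hydrolase, read 212, 176 and 213 in wild type and 398, 549 and 468 in knockout (log2 change 1.23 ± 0.143, SE, adjusted p = 0.0122). Dcxr, a reductase of xylulose, read 116, 71.8 and 114 in wild type and 283, 267 and 236 in knockout (1.41 ± 0.2, SE, adjusted p = 0.025). Neither gene's groups overlapped. Tial1, an RNA-binding protein, was called through 1 of 5 tested probe sets, which read 111 and 107 on wild-type arrays 1 and 3 and 261, 260 and 280 in knockout (1.29 ± 0.143, SE, adjusted p = 0.015). The other Tial1 probe sets had log2 changes of 0.02 or more and did not pass. Ndufa12, a subunit of respiratory complex I, was called higher by 2 probe sets (0.80 and 0.57), while the remaining tested one lay at -0.18, so its probe sets disagreed.

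Of the 63 genes listed for meningeal and mural cells and fibroblasts, 62 were on the array and 55 were tested. Of these, 12 rose (Bgn, Col3a1, Col6a3, Cxcl12, Dcn, Igfbp4, Itih5, Lama1, Lgals1, Lum, Slc6a13 and Tbx18; 0.198% of all genes were called higher) and 0 fell, and 31 were higher and 0 lower at an unadjusted p under 0.05. The median log2 change was 0.62, against 0.02 over all genes. Of 49 members listed on every array, 27 were higher with no overlap (55.1%, against 9.93% of all genes) and 1 was lower (2.04%, against 6.74%). The count of members that rose was 13 without wild-type array 1, 7 without wild-type array 2, 6 without wild-type array 3, 4 without knockout array 1, 4 without knockout array 2 and 5 without knockout array 3. With the Y-linked marker as a term it was 1. The summed signal of the 49 genes ran from 25229 to 36372 in wild type and from 39574 to 45123 in knockout. The lowest sum was that of wild-type array 2.

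The members were not alike. Foxc1, a transcription factor of the meninges, read 155, 125 and 130 in wild type and 261, 260 and 222 in knockout and was the first probe set beyond the threshold (log2 change 0.86, adjusted p = 0.0515), just outside Nfix with 0.0464. Pcolce, which helps to process collagen, had a log2 change of 1.17 (adjusted p = 0.0535), and Col6a2 one of 0.87 (adjusted p = 0.0551). Col1a1, the main fibrillar collagen of connective tissue, read 1215, 347 and 1166 in wild type and 1462, 1423 and 987 in knockout (0.69, adjusted p = 0.608). Its groups overlapped. Ptgds, a prostaglandin synthase of the leptomeninges, had a log2 change of -0.09 (adjusted p = 0.91), Fn1, fibronectin, one of 0.04 (adjusted p = 0.953) and Mgp, matrix Gla protein, one of -0.02 (adjusted p = 0.987). In Ptgds, Fn1 and Mgp the lowest of all 6 arrays was knockout array 1.

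Lists for other cells of the vessels and for blood held no called gene, where 0.198% of all genes were called higher and 0.252% lower. For endothelium, 0 of 41 genes tested passed limma's test in either direction, the median log2 change was 0.14, and 6 genes were higher and 1 lower at an unadjusted p under 0.05. For pericytes and smooth muscle, 0 of 13 passed (median 0.07, with 2 higher and 0 lower at an unadjusted p under 0.05). For blood cells, 0 of 7 passed (median 0.07, with 1 higher and 0 lower). These differences between lists were not tested.

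Among growth factor genes, ligands and receptors of the BMP, TGF-beta and IGF pathways were tested for 35 of 45 listed genes. Of these, 2 rose, Tgfbi and Igfbp4, and 0 fell, and the median was 0.11. At an unadjusted p under 0.05 in limma, 8 were higher and 2 lower. Of 28 listed on every array, 9 were higher with no overlap (32.1%, against 9.93% of all genes) and 1 lower (3.57%, against 6.74%). Over all genes, 0.198% were called higher. Igfbp4, a binding protein for insulin-like growth factors, rose through 1 of 5 tested probe sets (0.74, adjusted p = 0.0449), and all 5 were above 0. The ligands and receptors did not pass. Tgfb1 (0.24, adjusted p = 0.728), Tgfb2 (-0.25, adjusted p = 0.606) and Tgfb3 (-0.11, adjusted p = 0.9) had overlapping groups, and the receptor gene Tgfbr2 read 354, 246 and 299 in wild type and 458, 375 and 464 in knockout (0.54, adjusted p = 0.231). Id3, a target of BMP signalling, read 516, 463 and 506 in wild type and 714, 665 and 660 in knockout (0.46, adjusted p = 0.0725). Bmp4, a ligand also made in the oligodendrocyte lineage, read 181, 109 and 127 in wild type and was blank, 60.8 and 83.7 in knockout (-0.93, adjusted p = 0.253).

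**Figure D3:**
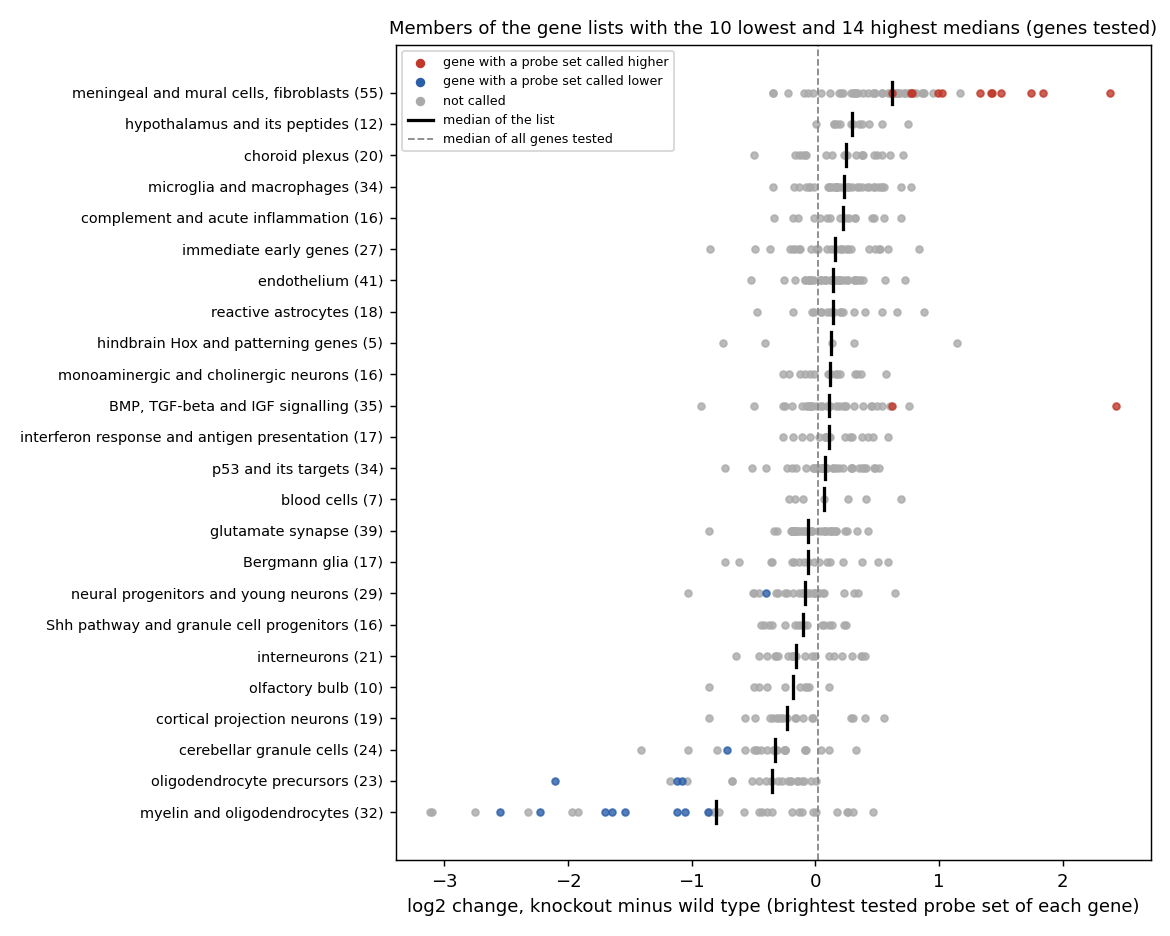
Log2 change (knockout minus wild type) of the tested members of the gene lists with the lowest and the highest medians, 1 point for each gene by its brightest tested probe set, with the list's median as a black bar and the number tested in brackets. The myelin list lies lowest, with a median of -0.80, and the meningeal list highest, with 0.62; the dashed line is the median of all genes, 0.02.

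No microglia or macrophage gene passed the test, where 0.198% of all genes were called higher and 0.252% lower. Of 34 tested, 0 passed limma's test in either direction, 12 were higher and 0 lower at an unadjusted p under 0.05, and the median log2 change was 0.23. Of 31 listed on every array, 10 were higher with no overlap (32.3%) and 0 lower, against 9.93% of all genes higher. Of the complement genes of microglia, C1qa read 447, 350 and 391 in wild type and 603, 567 and 570 in knockout (0.56, adjusted p = 0.0754), and C1qb read 242, 216 and 221 in wild type and 423, 307 and 375 in knockout (0.69, adjusted p = 0.0852). Tyrobp, an adaptor of microglial receptors, read 226, 234 and 232 in wild type and 340, 294 and 368 in knockout (0.53, adjusted p = 0.141). The homeostatic markers P2ry12 (0.14, adjusted p = 0.783) and Tmem119 (0.20, adjusted p = 0.685) had overlapping groups. The summed signal of the 31 genes was 22810 to 24239 in wild type and 25515 to 25672 in knockout.

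None of the tested genes on the lists of pathways in which Brca1 acts passed the test. Over all genes tested, 0.198% were called higher and 0.252% lower, shares at which lists of this size can easily hold no called gene. Of 43 double-strand break repair and checkpoint genes tested, 0 passed limma's test in either direction (0 higher and 1 lower at an unadjusted p under 0.05), and the median log2 change was -0.01. Their summed signal was 10540 to 10708 in wild type and 10542 to 10718 in knockout. Of 34 p53 target genes, 0 passed (5 higher and 4 lower at an unadjusted p under 0.05, as were 2275 of the 21407 probe sets in either direction, median 0.07). Of 31 such genes listed on every array, 6 were higher with no overlap (19.4%, against 9.93% of all genes) and 3 lower (9.68%, against 6.74%). Of 28 apoptosis genes, 0 passed (0 higher and 2 lower, median 0.03). Of 34 primary microcephaly and centrosome genes, 0 passed (2 higher and 2 lower, median -0.03), and of 62 replication and mitosis genes, 0 passed (2 higher and 0 lower, median -0.01).

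Nfix and Dcx were the called genes of the neuronal and progenitor lists, beside Slc6a13 on the GABA list, and several neuronal lists varied between arrays. Calls over all genes were 0.198% higher and 0.252% lower. Cerebellar granule cell genes had a median of -0.33 over 24 tested, with 1 that fell (Nfix) and 4 lower at an unadjusted p under 0.05. Neurod1, a transcription factor of young granule cells, read 613, 389 and 2236 in wild type and 191, 231 and 646 in knockout (log2 change -1.41, adjusted p = 0.456). Wild-type array 3 stood far above all others, and the groups overlapped. The summed signal of 21 granule cell genes was 24277 on that array and 15558 to 17864 on the other 5. Neural progenitor and young neuron genes had 1 member that fell, Dcx, of 29 tested, with a median of -0.08. Cortical projection neuron genes had a median of -0.23 over 19 tested and 0 called (2 higher and 1 lower at an unadjusted p under 0.05), and their sums were highest on knockout array 1 (9295) and wild-type array 2 (8926). Striatal (median -0.05 of 16), hippocampal (0.04 of 13) and thalamic and midbrain genes (0.04 of 21) had 0 called, with 0, 0 and 0 higher and 0, 2 and 2 lower at an unadjusted p under 0.05. Hypothalamic genes had a median of 0.30 over 12 tested, with 0 called and 4 higher and 0 lower at an unadjusted p under 0.05. Astrocyte genes had 0 of 39 called and a median of -0.04 (3 higher and 5 lower at an unadjusted p under 0.05).

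Choroid plexus genes differed between arrays more than between genotypes. Ttr, the transthyretin gene that choroid plexus expresses most, read 6226, 7615 and 7166 in wild type and 8777, 7261 and 1887 in knockout (log2 change -0.50, adjusted p = 0.757). Knockout array 3 was the lowest by a wide margin. The summed signal of 15 choroid plexus genes was 10774 on that array and 13733 to 17454 on the other 5, while the list had 0 of 20 called (4 higher and 0 lower at an unadjusted p under 0.05) and a median of 0.25. The wild-type arrays therefore differed in granule cell signal and the knockout arrays in choroid plexus signal, and the part of the dissection in the other results was not tested.

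**Figure D4:**
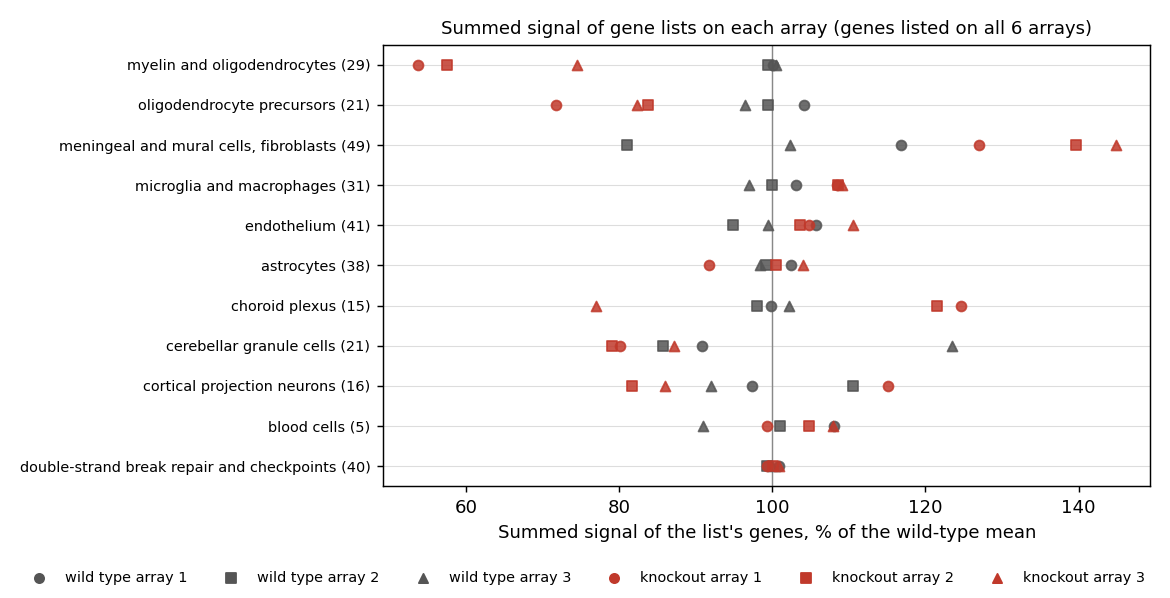
Summed MAS5 signal of each list's genes that were listed on all 6 arrays, as a percentage of the wild-type mean, 1 point for each array, with the number of genes in brackets. The myelin sums of 15644, 16765 and 21690 in knockout lie left of the wild-type arrays and the meningeal sums right of them; choroid plexus is low on knockout array 3 and granule cell signal high on wild-type array 3, while the repair genes lie within 10540 to 10718 on every array.

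The knockout effect in the rest samples was set beside that in the cortex samples of the same study, 3 per genotype on an array type that shares 11959 tested probe sets. The difference between the tissues passed limma's test for 8 probe sets (0.0669%), 2 more positive and 6 more negative in the rest, with 1315 at an unadjusted p under 0.05. The labels do not say whether rest and cortex samples of the same number came from 1 animal, and the fit took them as independent. Lpar1, the receptor for lysophosphatidic acid found in oligodendrocytes and meninges, had the lowest adjusted p, by 1 of its 3 probe sets tested in the rest. In the rest this probe set read 387, 353 and 322 in wild type and 217, 202 and 299 in knockout (log2 change -0.58, adjusted p = 0.227), and in cortex 101, 82.9 and 91.3 in wild type and 280, 272 and 204 in knockout (1.45, adjusted p = 0.000741). The groups of this probe set were apart in both tissues, in opposite directions, and the difference was -2.03 ± 0.232 (SE, adjusted p = 0.00613). The other Lpar1 probe sets had overlapping groups in the rest, with log2 changes of -0.30 (adjusted p = 0.714) and -0.23 (adjusted p = 0.769). The first of these was also measured in cortex, where its change was 1.25, and its difference did not pass (-1.55, adjusted p = 0.124).

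Gsn differed by 2 probe sets, with differences of -1.57 (adjusted p = 0.00928) and -1.80 (adjusted p = 0.00987). The log2 changes of these 2 were -1.39 and -1.47 in the rest and 0.18 and 0.33 in cortex, where they did not pass. Itih5 rose in both tissues, by 1.5 in the rest and 2.48 in cortex, with a difference of -0.98 (adjusted p = 0.0358). Lgals1, a galectin of meningeal cells, was likewise higher in both, 0.66 and 1.54, with a difference of -0.88 (adjusted p = 0.0358). Tmtc4, which encodes a protein of the endoplasmic reticulum, had log2 changes of 0.03 in the rest and -0.83 in cortex, a difference of 0.86 (adjusted p = 0.0358). Kcnip1, a potassium channel subunit of interneurons, had 0.18 and -0.60, a difference of 0.78 (adjusted p = 0.0487), and the Malat1 probe set called above had -1.06 and 0.56, a difference of -1.63 (adjusted p = 0.0358). With the Y-linked marker as a term in both tissues, limma called 0 of 11776 probe sets, with 673 at an unadjusted p under 0.05. The count was 1 without rest wild-type array 1, 1 without rest wild-type array 3, 3 without rest knockout array 1, 4 without rest knockout array 2 and 20 without rest knockout array 3. It was 4 without cortex wild-type array 1, 5 without cortex knockout array 1, 4 without cortex knockout array 2 and 3 without cortex knockout array 3.

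**Figure D5:**
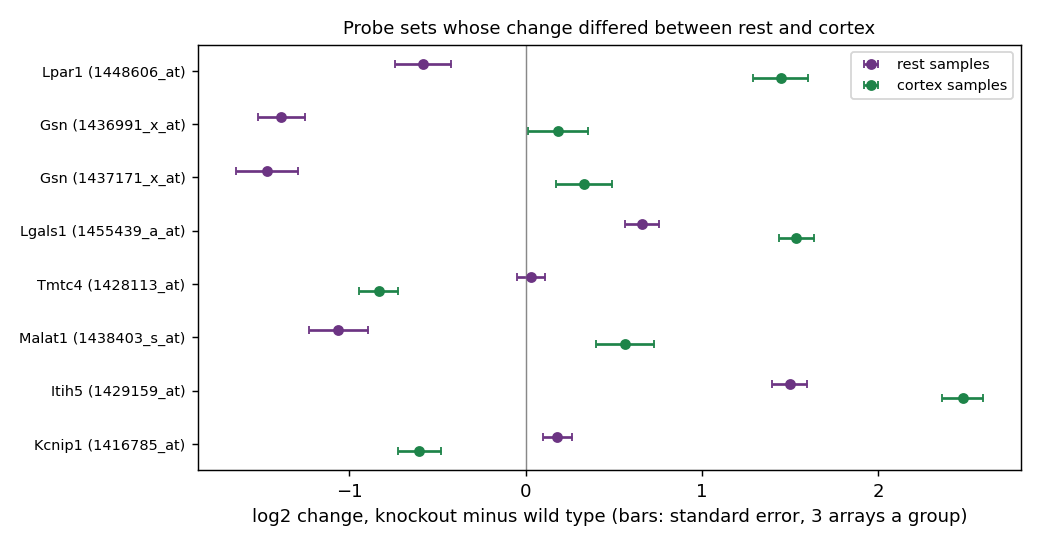
Log2 change (knockout minus wild type) with its standard error, from 3 arrays a group, for the 8 probe sets whose change differed between rest (purple) and cortex (green). Lpar1 has opposite signs, -0.58 in the rest and 1.45 in cortex, while Itih5 and Lgals1 lie right of 0 in both.

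For the genes with the largest changes in the rest that the cortex array also measured, the meningeal log2 changes were numerically larger in cortex and the difference passed for Itih5 alone. Cxcl12 had log2 changes of 1.63 in the rest and 2.24 in cortex (adjusted p of the difference = 0.497), Col3a1 had 1.43 and 2.04 (0.373), and Slc6a13 had 1.84 and 1.92 (0.969). Of the oligodendrocyte genes, Cnp had -1.69 in the rest and -1.05 in cortex (adjusted p of the difference = 0.511), and Olig2 had -1.08 and -0.48 (0.425). Galc had -1.89 and -0.85 (0.268), and the brightest Gsn probe set had -1.70 and 0.14 (0.0825). Within cortex Cnp passed limma's test (adjusted p = 0.00201), while Olig2 (0.342), Galc (0.129) and this Gsn probe set (0.669) did not.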

How the data were processed

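The values are MAS5 signals, an intensity on a linear scale, in the table the authors deposited; the tool is named per the submitters' processing notes, and its version and scaling target are not given in the sources used here. RNA was extracted with TRIZOL, per the labels' protocols. Blank cells were treated as missing. Each probe set was named from GEO's platform annotation, updated to RefSeq symbols: 34945 had 1 symbol, 932 several and 9160 none, and probe sets with several were left unnamed.

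Log2 of the signals, with no rescaling and no offset, was fitted with limma 3.58.1 (lmFit, and eBayes with an intensity trend) in R 4.3.3, with Benjamini-Hochberg adjustment over all 21407 probe sets and a threshold of 0.05; AFFX controls were left out. The difference between rest and cortex was an interaction term over the probe sets tested in both tables, with each table's signals as deposited. The number of arrays, 3 a group, limits the precision. The fits were tested on simulated data. The genes named in full are the 12 largest rises and 12 largest falls among called probe sets with 1 symbol and groups that do not overlap; of each list up to 4 called members or those with the lowest p, and members that mark a cell type, are named. Members, gene lists (43) and rules were chosen with earlier results of these data known. Alternatives covered scaling, offsets, filters on low or blank signals, the variance model, a replicate block, a sex-marker term and leaving out each array.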

Additional observations from a re-analysis of the deposited data

Results flagged for a closer look

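The knockout effect differed between rest and cortex for 8 probe sets, by an interaction term in limma (adjusted p under 0.05). The difference, rest minus cortex on the log2 scale, was -2.03 for 1 probe set of Lpar1, -1.57 and -1.8 for 2 probe sets of Gsn, -0.877 for Lgals1, -1.63 for Malat1 and -0.98 for Itih5. It was 0.864 for Tmtc4 and 0.784 for Kcnip1. A second Lpar1 probe set had a difference of -1.55 that did not pass (adjusted p = 0.124). The other tested Malat1 probe sets in the rest did not pass, and the rest and cortex arrays were of different types.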

How the results depend on the processing

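All of the 67 called probe sets that had a value kept their direction under every alternative. With 1 array left out or the sex-marker term added, no other direction was possible, since the groups did not overlap. The same held for offsets, array weights and the replicate block. Filters and the variance model leave the log2 change as it is. Only rescaling, quantile normalization and filled blanks could have changed a direction. Between 63 and 97 probe sets were called under several alternatives. These were trimmed mean scaling, median centring, quantile normalization, offsets of 16 or 64 and robust variance estimates. Array weights, only probe sets listed on all 6 arrays and blanks set to a low signal were the others. Blanks at a low signal gave 97, 60 of them higher, and 41 of the 67 were among them. A filter at the 40th percentile of mean signal left 36 (17 higher, 19 lower, 17 list members, 12 of the 24 named genes), and no variance trend left 8 (5 higher, 3 lower, 5 list members, 5 named genes; 3 for the difference between tissues). The sex-marker term left 8 (2 higher, 6 lower, 4 list members, 1 named gene; 0 of 11776 for the difference, with 673 at an unadjusted p under 0.05 in limma). At an adjusted p of 0.10 there were 153 (60 higher, 93 lower, 47 list members; 23 for the difference), and an offset of 64 left 3 for the difference. Leaving out 1 array gave 12 to 67 calls, with 7 to 24 higher and 5 to 49 lower, 9 to 28 list members in place of 26, 8 to 18 named genes and 1 to 20 for the difference. With the replicate number as a block, 159 were called (53 higher, 106 lower; 53 list members), and 9 for the difference, where Kcnip1 (adjusted p = 0.113), Malat1 (0.11) and Tmtc4 (0.0754) no longer passed, but deviations of same-numbered arrays correlated at only 0.0218, 0.0623 and 0.241, not every array correlated best with its own number, and the pairing was not used. Over the named genes and the 8 differences, 498 of the alternative fits kept the call and 225 kept only the direction. Signals near the lowest listed values limit what can be called: 4 of the 24 log2 changes, those of Galc, Adamts4, Cpox and Tbx18, shrank by over 1.5 times with the offset of 64. Which cause lies behind these shifts was not tested.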
